A study of Mus musculus with 6 samples.

Results

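The Bcl2 family sets whether a cell goes through the mitochondrial pathway of apoptosis, and 10 of its genes were followed here: the anti-apoptotic Bcl2, Bcl2l1 and Mcl1, the effectors Bax and Bak1, and the BH3-only genes Bcl2l11, Bid, Bbc3, Pmaip1 and Bad. They were chosen by name, as the rows of the count table whose Ensembl identifier carries these symbols in GENCODE M21, and make up 10 of 46983 rows. None of the 10 met the test in BAF155/170-deficient cells. Their order of abundance per kilobase of exon, with Mcl1 highest and Bcl2 lowest, was the same in each of the 6 libraries.

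RNAseq was performed on GFP+ neural crest cells (NCCs) sorted from E11.25 mouse embryos, with 3 control and 3 BAF155/170-deficient libraries. Control embryos were Wnt1Cre/+;BAF155flox/+;BAF170flox/+;Rosa26mTmG/+, so they too carried Cre and 1 floxed copy of each gene. Deficient embryos were Wnt1Cre/+;BAF155flox/flox;BAF170flox/flox;Rosa26mTmG/+. BAF155 and BAF170, encoded by Smarcc1 and Smarcc2, are core subunits of the BAF chromatin remodeling complex, and the Rosa26mTmG allele turns on GFP in cells where Cre has been active. Wnt1-Cre acts in the dorsal neural tube as well as in the NCCs that leave it. Cells were collected from 3 control and 3 deficient embryos. The labels do not tie a library to an embryo, and p-values measure the spread between these libraries.

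In healthy cells the anti-apoptotic proteins hold the effectors Bax and Bak in check at the mitochondrial outer membrane. BH3-only proteins respond to stress, loss of growth factors or DNA damage: some bind and block the anti-apoptotic proteins, and Bim and Bid can also activate Bax and Bak directly. Once active, Bax and Bak form pores, cytochrome c is released and caspases are switched on. NCCs that lose survival signals are known to die by apoptosis. Much of the control of this family acts on protein stability, cleavage, phosphorylation and location, which RNA counts do not measure.

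Library totals ran from 8191219 to 19808620 counts, and each deficient library was deeper than each control library. Smarcc1 was at 42.1, 55.0 and 35.1 CPM (counts scaled to library size) in the controls and at 29.4, 26.4 and 24.5 CPM in the deficient libraries, a log2 fold change of −0.71 (SE 0.16, adjusted p = 0.0676, edgeR). Without control replicate 1, deficient replicate 2 or deficient replicate 3 its adjusted p was 0.222, 0.132 and 0.225. Smarcc2 was at 89.9 to 92.9 CPM in the controls and 82.3 to 86.8 CPM in the deficient libraries (log2 fold change −0.11, adjusted p = 0.251), and counts per gene do not separate floxed from other exons. Markers that define the neural crest were scarce: the 8 listed (Sox10, Foxd3, Tfap2a, Tfap2b, Ets1, Twist1, Snai2, Sox9) summed to 32.7 to 71.2 CPM in the controls and to 16.6 to 23.7 CPM in the deficient libraries, with 5 of 7 tested called lower and Foxd3 too low to test. The 12 macrophage markers, which include Lyz2, Ctss and the C1q genes, summed to 12177 to 14083 CPM in the controls and 14189 to 15515 CPM in the deficient libraries, with log2 fold changes above 0 for 12 of 12, a median of 0.18 and 1 (Adgre1) past the adjusted p threshold. The libraries therefore held RNA of more than 1 cell type, and the levels below are levels of that mixture. In such bulk samples fewer cells of a type and less RNA per cell cannot be told apart.

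Per kilobase of annotated exon, Mcl1 was the most abundant member in each of the 6 libraries and Bcl2 the least. Mcl1, a short-lived protein that binds Bak and Bim, averaged 171 CPM per kilobase. Bak1 followed at 67.1, Bax at 52.6, Bcl2l1 at 29.97 and Bid at 14.8 CPM per kilobase. The ranges of these 5 genes over the 6 libraries did not touch each other. Pmaip1 averaged 8.31, Bad 7.42 and Bbc3 6.07 CPM per kilobase, and neighbours among these 3 overlapped in range, although Pmaip1 stood above Bad and Bad above Bbc3 in 6 of 6 libraries. Bcl2l11 averaged 2.87 and Bcl2 0.400 CPM per kilobase, with no overlap between them. The mean level of Mcl1 was 428 times that of Bcl2 and that of Bcl2l1 was 74.9 times that of Bcl2. Both effectors stood above each BH3-only gene, and Bak1 was 23.4 times as abundant as Bcl2l11. The exon length is the union of all annotated exons (9157 bases for Bcl2, 3418 for Mcl1), so a gene read mainly from a shorter transcript has its level understated.

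**Figure D1:**
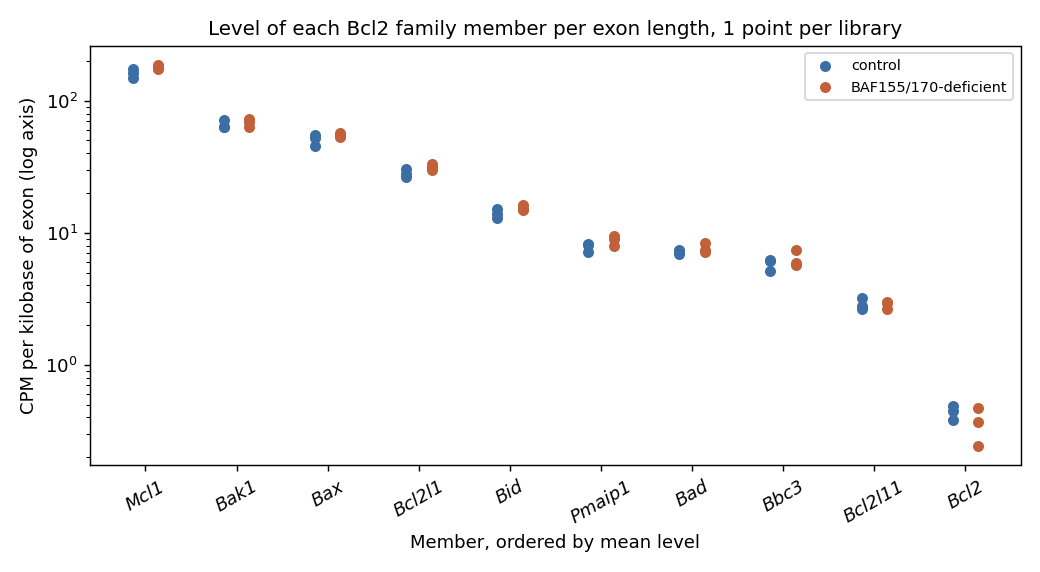
Level of each of the 10 members in CPM per kilobase of exon, on a log axis, with 1 point per library (blue, control; orange, BAF155/170-deficient) and genes ordered by mean. The order runs from Mcl1 at 171 down to Bcl2 at 0.400, and the points of both groups lie close together for each gene.

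The promoters of the most and the least abundant member are shown for comparison, from windows of GRCm38.p6 that reach from 250 bases before to 50 after the RefSeq start. Capitals mark GGGCGG (the Sp1-type GC box) on either strand. The Mcl1 window is chr3:95658471-95658770 on the plus strand and the Bcl2 window is chr1:106714241-106714540 on the minus strand. The GENCODE M21 start of Mcl1, 95658788, lies past the end of its window, since RefSeq and GENCODE place the start differently.
Mcl1: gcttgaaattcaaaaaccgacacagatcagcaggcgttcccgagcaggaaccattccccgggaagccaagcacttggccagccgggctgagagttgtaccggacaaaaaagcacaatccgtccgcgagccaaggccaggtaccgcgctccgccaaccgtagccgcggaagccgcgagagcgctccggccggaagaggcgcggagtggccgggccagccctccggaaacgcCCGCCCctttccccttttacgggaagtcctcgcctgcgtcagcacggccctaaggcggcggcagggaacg
Bcl2: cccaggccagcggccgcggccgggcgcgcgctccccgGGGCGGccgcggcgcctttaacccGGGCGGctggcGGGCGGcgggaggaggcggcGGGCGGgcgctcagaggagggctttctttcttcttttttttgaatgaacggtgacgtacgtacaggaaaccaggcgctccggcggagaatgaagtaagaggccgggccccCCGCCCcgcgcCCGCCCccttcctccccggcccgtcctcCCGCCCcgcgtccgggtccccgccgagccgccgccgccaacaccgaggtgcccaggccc
The Mcl1 window is 65.7% GC with 33 CpG and holds 1 GGGCGG. The Bcl2 window is 76.0% GC with 44 CpG and holds 7 of them.

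RefSeq windows were found for 9 of the 10 members, all but Pmaip1, which was therefore not searched. They made 15 windows in all, of which some of the same gene overlap. Their GC content ran from 49.3% (a Bcl2l1 start) to 78.0% (a Bbc3 start), beside a median of 52.7% over all 32851 windows. TATAAA, searched on both strands, was in 0 of 15 windows and in 13.6% of all windows. CCAAT was in 4 of 15, in Bcl2l11, Bbc3 and Bad, beside 37.4% of all windows. GGGCGG was in 10 of 15, beside 35.7% of all windows. Counted by gene, 7 of the 9 members had it in at least 1 window, and no share by gene was taken over all genes. Bcl2l1 and Bak1 had none of these 3 motifs. A p53 half-site was found once, in the window of Bax (chr7:45466849-45467148, minus strand), and in 8.36% of all windows. Such matches are letters in a window, not binding sites.

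Among the anti-apoptotic members, Mcl1 and Bcl2l1 were slightly higher and Bcl2 was lower in mean, and no difference met the adjusted p threshold of 0.1. Mcl1 (chromosome 3, GRCm38, 95658788 to 95663176, plus strand) was at 555, 506 and 597 CPM in the controls and at 591, 625 and 638 CPM in the deficient libraries. Control replicate 3 lay above deficient replicate 1, so the groups overlapped. The means were 553 ± 45.4 CPM (SD, n = 3) and 618 ± 24.1 CPM (SD, n = 3). The log2 fold change was 0.16 (SE 0.071, 95% interval 0.0064 to 0.32, adjusted p = 0.168).

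Bcl2l1, which encodes Bcl-xL, a protein that holds both Bax and Bak, lies on chromosome 2 (152780668 to 152831728, minus strand). It was at 128, 122 and 138 CPM in the controls and at 138, 145 and 153 CPM in the deficient libraries. Only the highest control, at 138.4 CPM, and the lowest deficient library, at 137.8 CPM, crossed. This gave a log2 fold change of 0.17 (SE 0.067, 95% interval 0.020 to 0.31, adjusted p = 0.140). Mcl1 and Bcl2l1 were the 2 members at an unadjusted p under 0.05, a level reached by 27.3% of all genes tested. Without control replicate 3 the adjusted p was 0.0315 for Mcl1, 0.0414 for Bcl2l1 and 0.0950 for Bid, beside 3745 of 14430 genes past the threshold. Without control replicate 2 it was 0.442, 0.373 and 0.599 for these genes, beside 73 of 14305 genes past the threshold. The median log2 fold change of the macrophage markers was 0.18, and their part in the values of Mcl1 and Bcl2l1 was not tested.

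Bcl2, the founding member of the family (chromosome 1, 106538178 to 106714274, minus strand), was at 4.47, 3.48 and 4.10 CPM in the controls and at 3.37, 4.34 and 2.23 CPM in the deficient libraries. Deficient replicate 3 was the lowest library and deficient replicate 2 lay inside the control range. These values rest on 26 to 71 counts per library, the smallest of all members. The log2 fold change was −0.29 (SE 0.29, 95% interval −0.92 to 0.33, adjusted p = 0.540). It was −0.06 without deficient replicate 3 and −0.54 without deficient replicate 2. Its interval was the 1 of 10 that ran past the fold threshold of 0.58, and it includes a fall of that size in Bcl2. Over the 6 libraries, the genes with the pattern nearest to Bcl2 among 11786 genes of at least 2 CPM were Slitrk5 and Shprh, with root mean square differences of 0.073 and 0.088 on the log2 scale after centring.

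Both effectors were at similar levels in the groups. Bax (chromosome 7, 45461697 to 45466898, minus strand) is a cytosolic protein that moves to mitochondria when activated, and it was at 83.0, 71.2 and 86.1 CPM in the controls and at 85.0, 83.2 and 89.1 CPM in the deficient libraries. Control replicate 2 was the low library and the others spanned a narrow range. Its log2 fold change was 0.10 (SE 0.076, adjusted p = 0.444). Bak1 (chromosome 17, 27019810 to 27029009, minus strand), which encodes the effector that resides on mitochondria, was at 151, 152 and 171 CPM in the controls and at 153, 174 and 167 CPM in the deficient libraries. Deficient replicate 1 lay among the controls, and the log2 fold change was 0.06 (SE 0.070, adjusted p = 0.620). The 95% intervals were −0.07 to 0.26 for Bax and −0.09 to 0.21 for Bak1, both well inside the fold threshold.

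The 5 BH3-only genes also stayed within a narrow range. Bcl2l11, which encodes Bim, lies on chromosome 2 (128126038 to 128162547, plus strand) and was at 22.4, 25.7 and 21.3 CPM in the controls and at 21.1, 24.1 and 23.6 CPM in the deficient libraries. For Bim the log2 fold change was −0.0016 (SE 0.10, 95% interval −0.22 to 0.22, adjusted p = 0.994). Of its deficient values, 2 of 3 lay within the control range. Bid (chromosome 6, 120891930 to 120916853, minus strand), a protein cleaved by caspase-8 into its active form, was at 49.5, 46.0 and 54.16 CPM in the controls and at 53.1, 57.7 and 54.22 CPM in the deficient libraries. The log2 fold change was 0.14 (SE 0.077, adjusted p = 0.269), and deficient replicate 1 lay below control replicate 3.

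Bbc3, the p53 target Puma (chromosome 7, 16308393 to 16318205, plus strand), was at 10.8, 13.1 and 13.0 CPM in the controls and at 12.5, 15.8 and 12.1 CPM in the deficient libraries. Deficient replicate 2 was the high library, and the other deficient libraries lay within the control range. The log2 fold change was 0.13 (SE 0.15, 95% interval −0.20 to 0.45, adjusted p = 0.616), and −0.000015 without deficient replicate 2. Pmaip1, the p53 target Noxa, which binds Mcl1, was at 22.0, 19.4 and 22.7 CPM in the controls and at 21.9, 25.8 and 24.4 CPM in the deficient libraries. At 0.17 on the log2 scale its change was the highest of the 10 and did not meet the threshold (SE 0.10, adjusted p = 0.309). Bad (chromosome 19, 6941861 to 6951899, plus strand), a protein kept inactive by growth factor signalling through Akt, was at 18.8, 17.5 and 18.7 CPM in the controls and at 18.4, 19.1 and 21.4 CPM in the deficient libraries. The groups overlapped, with a log2 fold change of 0.10 (SE 0.10, adjusted p = 0.579).

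**Figure D2:**
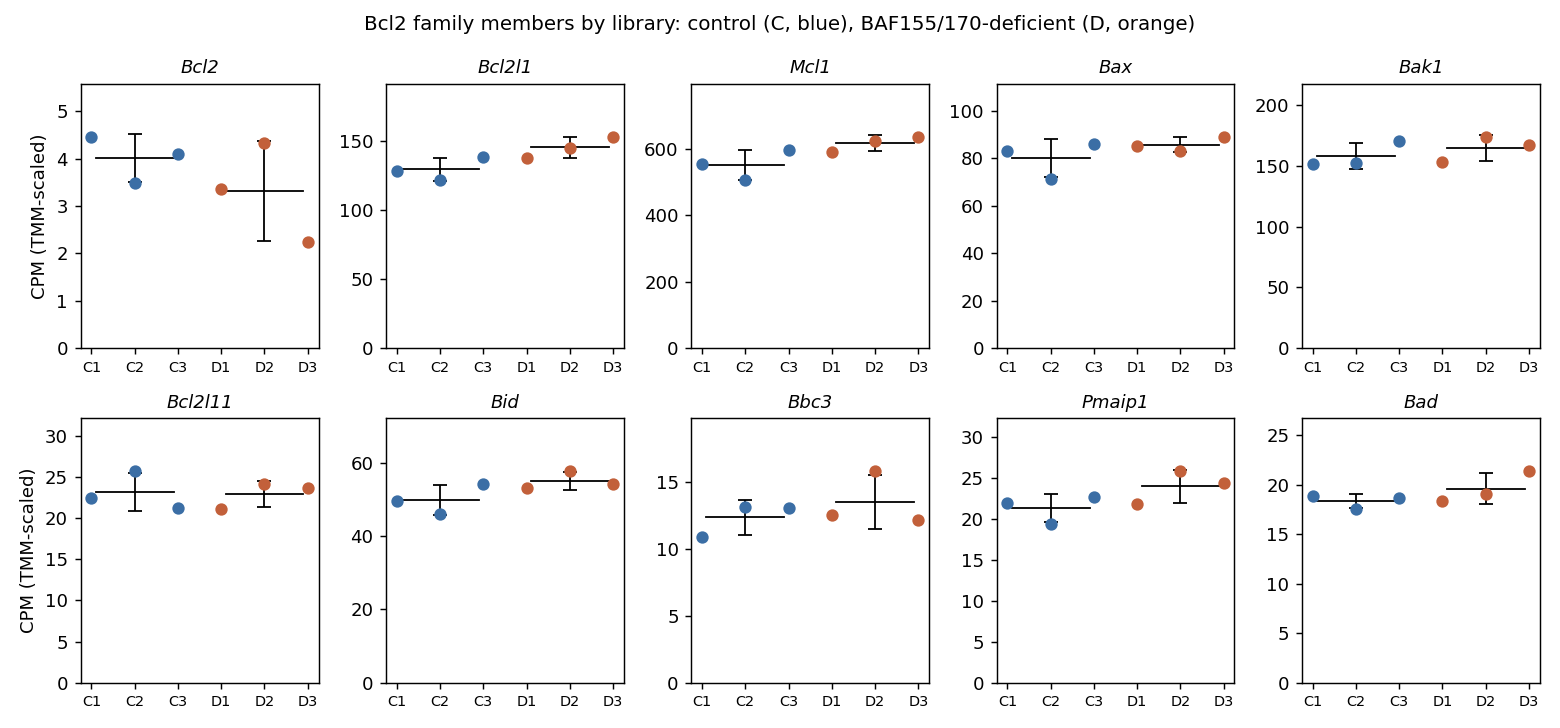
Level of each member in CPM (linear axis from 0) in control libraries C1 to C3 (blue) and BAF155/170-deficient libraries D1 to D3 (orange), with group means as lines and SD as bars (n = 3 each). The groups overlap for 10 of 10 genes, and Bcl2, at 2.23 to 4.47 CPM, has the widest spread for its level.

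Taken as a list, 0 of 10 members were called in either direction, beside 4.94% of the 13961 genes tested, where a call needed adjusted p ≤ 0.1, a log2 fold change of 0.58 or more in size, and a mean level of 2 CPM or more. At the adjusted p alone 0 of 10 were higher, beside 4.18% of all genes, and 0 of 10 were lower, beside 7.75%. In 0 of 10 did the groups not overlap, beside 31.4% of all genes. DESeq2 gave 1 member at an adjusted p of at most 0.1 (Mcl1, 0.0980, log2 fold change 0.18), beside 2072 of the 13961 genes tested. With limma-voom 0 members met it, beside 1902 of 13961 genes. Each of these tools had 2 members at an unadjusted p under 0.05, beside 3260 genes with DESeq2 and 3902 with limma-voom. With a replicate block, edgeR gave 2 members (Mcl1, adjusted p = 0.0396, and Bcl2l1, 0.0398), beside 3664 of the 13961 genes tested. The labels name no pairs of libraries.

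Most of the intervals were narrow, and they bound changes in the mixed RNA of the libraries, not in neural crest cells alone. The 95% interval lay within the fold threshold of 0.58 (1.49-fold) in both directions for 9 of 10 members, with bounds from −0.22 to 0.45. The median log2 fold change was 0.11 over the members and −0.02 over all genes tested. It was 0.16 over the 3 anti-apoptotic and 0.10 over the 7 pro-apoptotic members. The estimate was above 0 for 8 of 10 members, beside 47.7% of all genes. The sign of a small log2 fold change depends on how libraries are scaled: 9 of 10 were above 0 with library totals or the upper quartile, where Bcl2l11 changed sign, and 10 of 10 when libraries were scaled to embryonic markers. That last scaling, to 26 neural crest, mesenchymal, neuronal, glial and neural tube markers, moved the median of all genes to 0.99. Relative to that median Bcl2 was at −0.29, Bcl2l11 at 0.04 and the other 8 at 0.06 to 0.18.

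**Figure D3:**
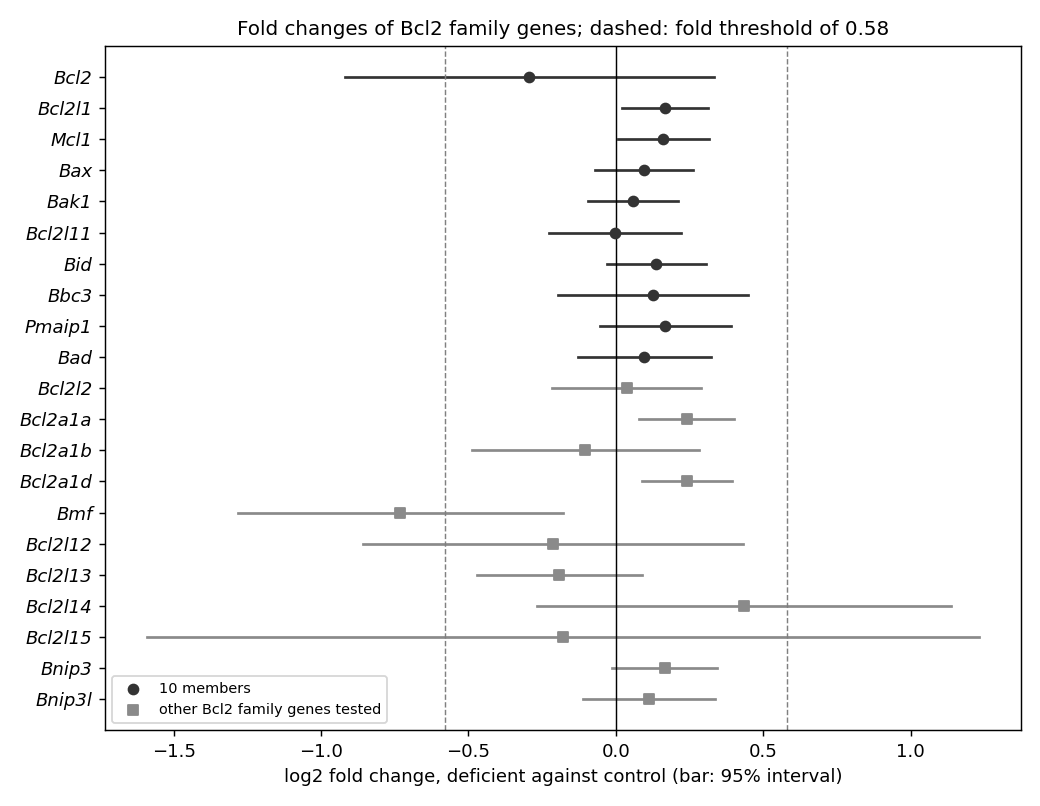
Log2 fold changes of the 10 members (black circles) and of the 11 other Bcl2 family genes tested (grey squares), BAF155/170-deficient against control, with 95% intervals and dashed lines at the fold threshold of 0.58. Of the members, Bcl2 alone has an interval that crosses a dashed line, and the signs of Bcl2 and Bcl2l11 change when libraries are scaled to embryonic markers.

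Pro-apoptotic and anti-apoptotic members were next compared within each library, since a ratio within a library does not depend on scaling. No test was made on these scores. The mean log2 CPM of the 7 pro-apoptotic genes minus that of the 3 anti-apoptotic genes was −0.98, −0.81 and −0.93 in the controls and −0.88, −0.89 and −0.68 in the deficient libraries. The groups overlapped, and the means differed by 0.089 against an SD of 0.085 in the controls and 0.12 in the deficient libraries. Deficient replicate 3, the library with the least Bcl2, was the highest, and without it the difference was 0.020.

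The same balance taken from summed CPM turned the other way. Anti-apoptotic CPM summed to 686 ± 54.0 in the controls and 767 ± 31.2 in the deficient libraries (SD, n = 3 each). Pro-apoptotic CPM summed to 363 ± 21.2 and 386 ± 18.1 (SD, n = 3 each). The log2 ratio of the sums was −0.94, −0.87 and −0.94 in the controls and −1.004, −0.95 and −1.02 in the deficient libraries, a difference of −0.075 with no overlap. The sum follows Mcl1, which held 80.2% to 80.7% of the anti-apoptotic CPM in each library, whereas the mean of logs gives Bcl2 the same weight as Mcl1.

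Of 10 pairs of a pro-apoptotic gene with an anti-apoptotic partner its protein is known to bind, 5 had a higher mean log2 ratio in the deficient libraries. The 4 pairs over Bcl2 differed by 0.31 to 0.47, and the 6 pairs over Mcl1 or Bcl2l1 by −0.17 to 0.0063. Bax over Bcl2, a ratio often quoted for this family, was 4.22, 4.35 and 4.39 in the controls and 4.66, 4.26 and 5.32 in the deficient libraries on the log2 scale. It overlapped between groups, with deficient replicate 2 below 2 of the 3 controls. Bid over Bcl2 was the 1 pair without overlap, at 3.469, 3.726 and 3.722 in the controls and 3.979, 3.733 and 4.603 in the deficient libraries, where the nearest libraries almost touched. The 4 pairs over Bcl2 share its 26 to 71 counts per library. Bak1 over Mcl1, the pair of the most abundant effector and the most abundant inhibitor, was −1.87, −1.73 and −1.81 in the controls and −1.95, −1.84 and −1.93 in the deficient libraries, which overlapped.

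**Figure D4:**
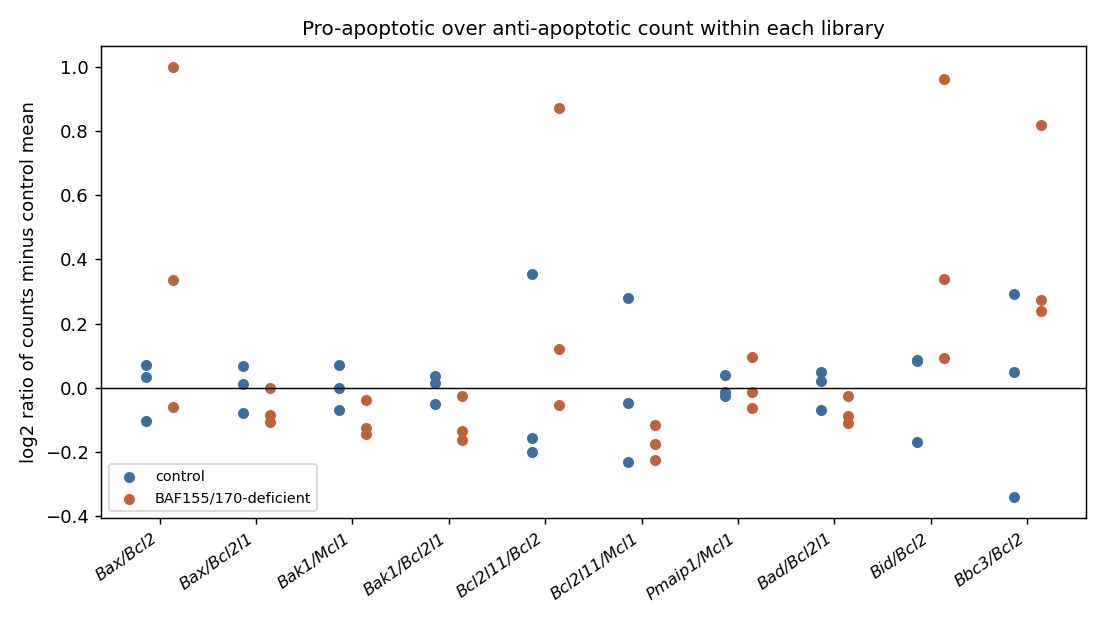
Log2 ratio of pro-apoptotic to anti-apoptotic counts within each library for the 10 pairs, minus the control mean of that pair (blue, control; orange, BAF155/170-deficient). The points of the 4 pairs over Bcl2 spread widely, with deficient replicate 3 highest, and those of the 6 other pairs stay closer to the control mean.

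The other Bcl2 family genes were taken from a list of 15, of which 11 passed the filter on low counts, with a median log2 fold change of 0.04. The anti-apoptotic Bcl2a1a and Bcl2a1d, which encode forms of A1, a survival protein of blood cells, met the adjusted p threshold and not the fold threshold. Bcl2a1d was at 174, 167 and 191 CPM in the controls and at 208, 198 and 224 CPM in the deficient libraries, a log2 fold change of 0.24 (SE 0.070, adjusted p = 0.0830). Bcl2a1a was at 39.6, 40.3 and 40.2 CPM in the controls and at 46.1, 45.0 and 50.6 CPM in the deficient libraries, a log2 fold change of 0.24 (SE 0.073, adjusted p = 0.0897). Neither had overlapping groups. When a library was left out, each met the threshold in 2 of 6 fits, those without control replicate 3 or deficient replicate 1, and adjusted p reached 0.321 for Bcl2a1a and 0.295 for Bcl2a1d. With DESeq2 Bcl2a1d met it (adjusted p = 0.0280) and Bcl2a1a did not (0.122). Bcl2a1b was at 76.9, 78.9 and 103 CPM in the controls and at 70.1, 97.0 and 74.4 CPM in the deficient libraries (log2 fold change −0.10, adjusted p = 0.727). The Bcl2a1 genes are near-identical copies, so how reads were divided between them is uncertain. The macrophage markers summed higher in each deficient library than in each control, as did the neutrophil markers at 38.5 to 41.2 against 29.2 to 34.1 CPM. Of the neutrophil markers, S100a8, S100a9, Mmp8 and Camp were higher in mean in the deficient libraries. Ngp, at a mean of 3.29 against 3.97 CPM, and Ltf, at 0.231 against 0.645 CPM, were lower. The part of macrophages and neutrophils in the Bcl2a1 values was not tested.

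Bmf, a BH3-only gene whose product is tied to the cytoskeleton in attached cells, had the largest difference of the family genes tested. It was at 4.999, 4.95 and 3.94 CPM in the controls and at 2.43, 2.44 and 3.37 CPM in the deficient libraries, without overlap. The log2 fold change was −0.73 (SE 0.25, 95% interval −1.28 to −0.18, adjusted p = 0.104), just short of the adjusted p threshold. Bmf rests on 31 to 71 counts per library. When a library was left out, it met that threshold in 1 of 6 fits, the one without control replicate 3, and adjusted p reached 0.284. With DESeq2 its adjusted p was 0.177. Bcl2l2, which encodes the anti-apoptotic Bcl-w, had a log2 fold change of 0.04 (adjusted p = 0.867). The mitophagy receptors Bnip3 and Bnip3l were at 0.17 and 0.11, Bcl2l13 at −0.19, Bcl2l12 at −0.21, Bcl2l14 at 0.44 and Bcl2l15 at −0.18 on the same scale, with adjusted p from 0.209 to 0.887. Bok, Bik, Hrk and Bcl2l10 were too low to test. Bok, a relative of Bax and Bak, was at 0.744, 2.14 and 0.739 CPM in the controls and at 0.548, 0.306 and 0.522 CPM in the deficient libraries.

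Genes that act before and after the Bcl2 family were read from a list of 34, of which 33 were tested, Trp73 being too low. Their median log2 fold change was 0.08, and 1 gene was lower at the adjusted p threshold. Mdm4, an inhibitor of p53, was at 44.9, 44.4 and 42.3 CPM in the controls and at 39.6, 36.0 and 36.7 CPM in the deficient libraries (log2 fold change −0.23, SE 0.073, adjusted p = 0.0948). It did not reach the fold threshold, and it missed the adjusted p threshold without control replicate 1 or 2 or deficient replicate 2 or 3, at up to 0.301. With DESeq2 its adjusted p was 0.232.

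By role, the medians of these lists ranged from −0.26 to 0.14. The 10 genes that promote death downstream of mitochondria, such as Apaf1 and Diablo, had a median of 0.10. The 6 that restrain it, such as Xiap and Birc2, had a median of 0.07 and 0 at the adjusted p. The 4 channel and fission genes (Vdac1, Vdac2, Vdac3, Dnm1l) had a median of 0.12 and the 7 tested transcription factors upstream of BH3-only genes, Trp53 among them, a median of 0.14, with 0 at the adjusted p in both. At an unadjusted p under 0.05 were 2 of 6, 1 of 4 and 2 of 7 genes of these 3 lists. So were 2 of 10 of the genes that promote death and 3 of 6 of the turnover list below. The share over all genes tested was 27.3%. The 6 genes listed under Mcl1 and p53 turnover had the lowest median, −0.26, with 5 of 6 below 0 and 1 (Mdm4) at the adjusted p. Of these, Trp53bp2, at −0.39, encodes a protein that binds p53 and is not a turnover factor. Of all 13961 genes tested, 7305 were below 0. As the list joins turnover of Mcl1 with that of p53, its median gives no direction for apoptosis.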

How the data were processed

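GFP+ NCCs were sorted from control and BAF155/170-deficient embryos and read as strand-specific poly(A) RNAseq (3 libraries each). The authors deposited counts per gene, whole numbers without normalization. Per the labels, the submitters' notes name FastQC 0.11.7, cutadapt 1.18, STAR, featureCounts and limma with GRCm38; the annotation release, the strand setting and the treatment of reads with several matches are not given in the sources used here. Identifiers were matched to GENCODE M21 without their version, which named 46488 of 46983 rows. Exons of other genes on the opposite strand share 6.09% of the exon length of Bcl2, 18.2% of Bak1, 17.7% of Bid and 20.5% of Bad, and without strand in the counting such reads cannot be told apart.

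The main test was run with edgeR 4.0.16 in R 4.3.3. Low genes were removed by filterByExpr. It asked for 15 counts in total and, in 3 libraries, for the CPM that 10 counts make in a library of median size. Libraries were scaled by TMM, and a robust quasi-likelihood F test had condition as its only term. Benjamini-Hochberg adjustment followed over 13961 genes. A call needed adjusted p ≤ 0.1, a log2 fold change of 0.58 or more in size and a mean level of 2 CPM or more, thresholds taken from the study's methods. CPM used TMM-scaled library sizes, and mean log2 values used a prior count of 2. SE and 95% intervals come from the F statistic. The common biological coefficient of variation was 12.8%. The study used limma; limma-voom 3.58.1 and DESeq2 1.42.0 served as alternatives, beside other scalings, filters, an exon length correction (lowess span 0.3), a replicate block and each library left out in turn. The test was tried on simulated counts before use. Summaries and figures used Python 3.11.15, pandas 2.3.3, numpy 2.4.6 and matplotlib 3.10.9.

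All 10 members are named, with the other Bcl2 family genes that passed the filter, pathway genes at adjusted p ≤ 0.1 (some are not reported here), the targeted genes and the 2 genes nearest in pattern to Bcl2. The members, pathway lists and marker lists were chosen with earlier results of these data known, so the lists are descriptions. On the log2 scale the median change was −1.41 over 7 neural crest defining markers, −0.93 over 9 mesenchymal and −0.98 over 11 neuronal and glial crest markers, −0.74 over 8 neural tube, 0.35 over 4 neutrophil, 0.06 over 4 endothelial and −0.49 over 5 erythroid markers.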

Additional observations from a re-analysis of the deposited data

How the results depend on the processing

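Of 150 fits of single members under the alternatives, 124 kept their sign and their side of the adjusted p threshold of 0.1. The count of members past it, 0 of 10, was 10 with libraries scaled to embryonic markers, beside 10526 of the 13961 genes tested. It was 1 without a filter on low counts (Bcl2l1, adjusted p = 0.0876), beside 3096 of 32523 genes. With DESeq2 it was 1, beside 2072 of 13961 genes. Leaving out a library gave 0 to 3 members, with 3 without control replicate 3, beside 3745 of 14430 genes. The replicate block gave 2 (Bcl2l1, adjusted p = 0.0398, and Mcl1, 0.0396), beside 3664 of 13961 genes. The deviations of same-numbered libraries had correlations of 0.028, −0.034 and 0.293, and control replicate 3 alone correlated best with its own number. With 3 libraries per group these values cannot settle whether the numbers pair the libraries, and the labels name no pairs. Signs turned for Bcl2 under embryonic markers (0.70) and for Bbc3 without deficient replicate 2 (−0.000015; up to 0.20 with another library left out). Bcl2l11, at −0.0016, turned to 0.063 with library totals, 0.0020 with the upper quartile, 1.03 with embryonic markers, 0.049 without a filter, 0.15 with the exon length correction, 0.021 with limma-voom and 0.016 with DESeq2, and it ranged from −0.061 to 0.077 when a library was left out. The cause of these shifts was not tested; the embryonic marker scaling by its construction divides by genes that were lower in the deficient libraries.

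All genes called numbered 689 (681 lower, 8 higher), and 9779 with embryonic markers (53 lower, 9726 higher), 1164 with the replicate block and 1665 at the adjusted p alone. Leaving out a library gave 0 to 1245. Dropping control replicate 1 left 0 (edgeR, 2547 genes at an unadjusted p under 0.05), dropping control replicate 2 left 61 and dropping control replicate 3 gave 1245. For deficient replicates 1, 2 and 3 these counts were 1037, 264 and 17. DESeq2 and limma-voom were not run on reduced sets. The difference in pro- minus anti-apoptotic level was −0.075 from summed CPM, beside 0.089 from mean logs and 0.020 to 0.14 with a library left out. Leaving out a library moved the median of the other Bcl2 family between −0.066 and 0.15, and that of the rest of the pathway between 0.048 and 0.10. Bcl2 rests on the fewest counts of the members, 26 to 71 per library.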

Other observations

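Within the pathway lists, 3 further genes were picked after their values were seen, none past the adjusted p threshold of 0.1 (edgeR). Birc5, which encodes survivin, a protein of dividing cells as well as an apoptosis inhibitor, was at 5.21, 5.22 and 4.19 CPM in the controls and at 3.68, 2.63 and 2.61 CPM in the deficient libraries, without overlap (log2 fold change −0.72, SE 0.25, adjusted p = 0.105). Huwe1, a ubiquitin ligase that targets Mcl1 protein, was at 148, 167 and 126 CPM in the controls and at 125, 117 and 75.3 CPM in the deficient libraries (log2 fold change −0.47, adjusted p = 0.247). Cycs, which encodes cytochrome c, was at 6.28, 5.35 and 6.57 CPM in the controls and at 9.08, 5.93 and 9.12 CPM in the deficient libraries, where deficient replicate 2 lay within the control range (log2 fold change 0.40, adjusted p = 0.243).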
